A study of Mus musculus with 12 samples.

Results

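Transcripts of 10 genes of interleukin-2 (IL-2) signalling were followed: the 3 IL-2 receptor chains (Il2ra, Il2rb and Il2rg), the transcription factors Stat5a and Stat5b, the feedback inhibitors Cish, Socs1, Socs2 and Socs3, and the kinase gene Pim1. They were chosen by symbol, and 10 of 10 were found among the 55291 gene symbols of the count table. The cells were primary CD8+ T cells, the cytotoxic lymphocytes, from mouse lymph node and spleen, which had been activated and grown for 3 days in culture. They then spent 24 h either in media or in a bovine collagen gel (Nutragen, 2 mg/mL), where the labels call them migrating. Each culture was made from wild-type (WT) mice and from Dock8 KO mice, with 3 libraries per group and 12 in all. Dock8 is an activator of the small GTPase Cdc42, which controls actin assembly. The sources used here do not give the Dock8 allele, the age of the mice, the activating stimulus, or whether IL-2 was added to the cultures. The 4 groups were compared to ask what the gel did in each genotype, what the genotype did in each culture, and whether genotype altered the response to gel.

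IL-2 binds a receptor of 3 chains. Il2ra (CD25) raises the affinity, while Il2rb (CD122) and Il2rg (the common gamma chain) carry the JAK kinases that phosphorylate STAT5. Phosphorylated STAT5 dimers bind DNA at palindromic sites and switch on their own inhibitors, of which Cish (the protein CIS) is the best-known target, along with Socs1, Socs2, Socs3 and Pim1. In activated CD8+ T cells this pathway supports growth, survival and effector differentiation, and CIS also restrains signalling from the T cell receptor. Transcript levels report on the genes only; phosphorylated STAT5 and receptor protein were not measured here.

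Between media and gel, Cish had the largest fitted difference of the 10 genes in both genotypes. In KO cells its transcript was lower in gel than in media, at 38.4% of the media level, and in WT cells the gel value was 46.4% of the media value, which did not pass edgeR's test over all genes; 3 of 22 alternatives called it. Il2rb and Socs2 were lower in KO gel than in KO media and lower in KO gel than in WT gel. The values for Il2ra, Il2rg, Stat5a, Stat5b and Pim1 did not pass the test in any of the 5 contrasts. In bulk RNA, fewer cells of a type and less RNA per cell cannot be told apart.

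Levels are given as CPM, which is the gene's count divided by the TMM-scaled library total and multiplied by 1000000, with the SD over 3 libraries. A gene is called when edgeR's quasi-likelihood F test gave a Benjamini-Hochberg adjusted p under 0.05 over the 19010 genes tested; all 10 genes were among those tested. A log2 fold change is the fitted difference on the log2 scale, given with its standard error (SE).

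Libraries totalled 28483064 to 61390702 counts. The 3 KO gel libraries stood apart: thinned to equal depth, each detected 28362 to 30104 genes, while the remaining 9 detected 24336 to 25142, and 2.27 to 2.61% of their counts were mitochondrial, against 1.34 to 2.31%. These 3 are the whole group, so no KO gel value can be given without them. Dock8 was at 362.5 to 450 CPM in WT libraries, 109 to 126 CPM in KO media and 158 to 168 CPM in KO gel. Between KO and WT the log2 difference was -1.77 (SE 0.09, edgeR adjusted p = 9.29e-08) in media and -1.35 (SE 0.09, edgeR adjusted p = 8.44e-07) in gel, lower in KO as labelled. Within KO, Dock8 was called higher in gel than in media, by 0.44 (SE 0.09, edgeR adjusted p = 0.00425). The 8 listed CD8 T cell markers summed to 3314 to 3617 CPM in WT media, 3362 to 3640 in WT gel, 3103 to 3553 in KO media and 3031 to 3173 in KO gel, so the gel groups did not overlap. One annotated ribosomal RNA gene took 11.8% of WT gel library 2 and 8.09% of KO media library 3, against 3.17 to 6.92% in the other libraries. Foxp3, the regulatory T cell factor, had 198 counts in WT media library 3 and 173 in WT gel library 3, against 4 to 48 in the other 10 libraries.

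In KO gel against KO media, 3 of the 10 genes were called, all lower (Cish, Socs2 and Il2rb), where 20.8% of all genes tested were called and 9.74% were called lower (2111 higher and 1851 lower genes, or 2007 and 869 with totals left unscaled). The median log2 fold change of the 10 was -0.07, against -0.01 over all genes. In WT gel against WT media, 0 of the 10 were called by edgeR, where 0.0368% of all genes were. Before adjustment, Cish, Socs3 and Socs1 were under 0.05 (3 of the 10), as were 1033 of the 19010 genes tested. Of the 10, limma-voom called 0 and DESeq2 called 1 (Cish), where they called 0.0368% and 0.247% of all genes. For KO against WT media, 0 of the 10 were called by edgeR, where 0.189% of all genes were. Before adjustment, 1 (Socs3) was under 0.05, as were 1423 of the 19010 genes. Both limma-voom and DESeq2 called 0 of the 10, where they called 0.195% and 0.473% of all genes. For KO against WT gel, 2 of the 10 were called, both lower (Il2rb and Socs2), where 14.8% of all genes were called and 7.71% were called lower (1354 higher and 1465 lower genes, or 1875 and 407 with totals left unscaled). The interaction, which tests whether the gel response differed between the genotypes, called 0 of the 10 by edgeR, where 3.35% of all genes were called. Before adjustment, 1 (Il2rb) was under 0.05, as were 3726 of the 19010 genes. Of the 10, limma-voom called 0 and DESeq2 called 1 (Il2rb), where they called 3.1% and 6.04% of all genes. The counts in both KO gel contrasts are small beside a background of that size. These contrasts share libraries, so they are not independent of each other.

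**Figure D1:**
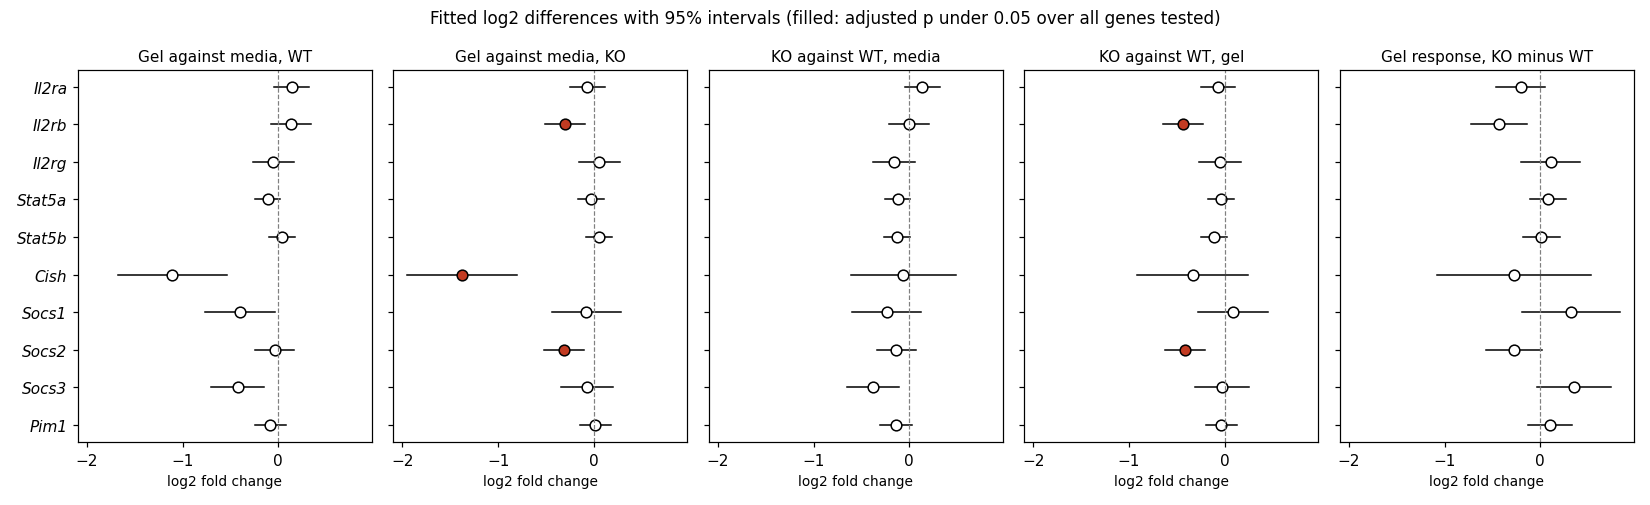
Fitted log2 fold change of each of the 10 genes (horizontal axis, log2 units) in the 5 contrasts, with 95% intervals; filled points passed an adjusted p of 0.05 over all genes tested. Cish lies far to the left of 0 in gel against media in both genotypes, at -1.11 in WT and -1.38 in KO, and the filled points for Il2rb and Socs2 appear only in the panels that use the KO gel libraries.

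Scaled to length, as CPM per kb of annotated exon, the receptor chain Il2rb was the most abundant of the 10, at 182 on average over the 12 libraries (range 144 to 227). Pim1 followed at 58.0 (53.1 to 65.3), Il2ra at 52.4 (46.7 to 59.2) and Il2rg at 49.4 (41.5 to 60.4), and the ranges of these 3 overlapped. Stat5b came next at 31.6 (28.1 to 34.6), above Stat5a at 9.99 (9.29 to 11.1) with no overlap. Socs1, at 12.4 (9.78 to 19.3), Stat5a, and Socs3, at 9.64 (7.74 to 14.2), overlapped one another. Cish was at 5.78 (2.52 to 10.5), overlapping Socs3 at its upper end, and Socs2 was lowest at 1.87 (1.39 to 2.29). The length is the union of all annotated exons, which understates genes with long retained-intron models, and the order is a description with no test.

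**Figure D2:**
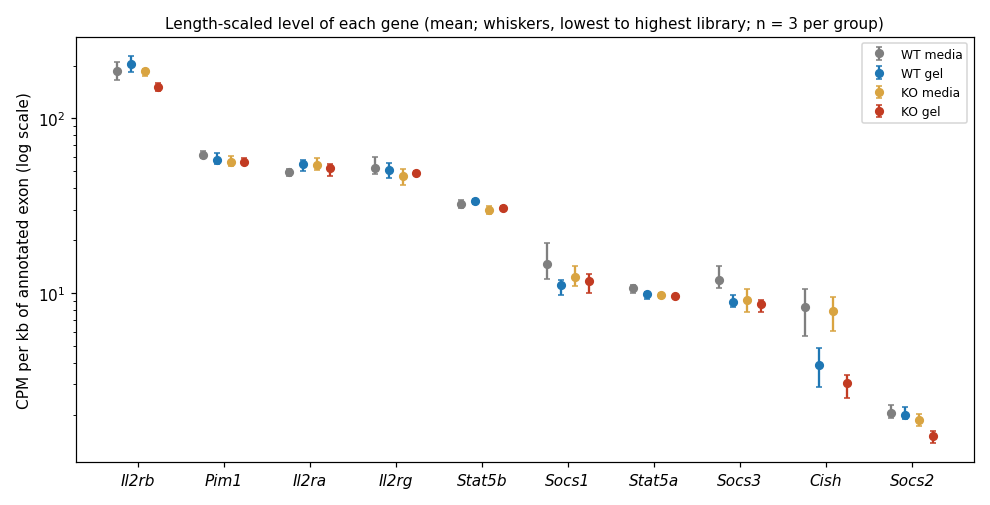
Length-scaled level of the 10 genes (vertical axis, CPM per kb of annotated exon, log scale) as group means of 3 libraries, with whiskers from the lowest to the highest library. Il2rb is highest and Socs2 lowest in all 4 groups, and the gap between media and gel is widest for Cish.

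Il2rb (chr15:78479256-78495271 in GRCm38, minus strand) encodes the signalling chain shared by the IL-2 and IL-15 receptors. Its level was 905, 790 and 709 CPM in the WT media libraries numbered 1, 2 and 3, and 971, 872 and 791 CPM in the WT gel libraries. For KO the media libraries gave 822, 752 and 822 CPM and the gel libraries 617, 678 and 652 CPM. The 3 KO gel libraries were the lowest of the 12, and none overlapped any other group; of all genes, 23.9% lay below KO media and 19.9% below WT gel without overlap. In WT each gel library was above the media library of the same number, while the groups overlapped; the log2 fold change was 0.13 (SE 0.10, 95% interval -0.07 to 0.34) and was not called. Within KO, gel was at 81.2% of media, a log2 fold change of -0.30 (SE 0.10, edgeR adjusted p = 0.0412). Between the genotypes in gel, KO was at 73.9% of WT, -0.44 on the log2 scale (SE 0.10, edgeR adjusted p = 0.00830), and in media the difference was -0.005 (SE 0.10). The difference between the 2 gel responses was -0.43 (SE 0.14, 95% interval -0.72 to -0.14), with an unadjusted p of 0.00679 and an edgeR adjusted p of 0.0986, so it was not called. With the replicate block that pairs media and gel by number within each genotype it was -0.43 (SE 0.08, edgeR adjusted p = 0.000838) and was called; that fit called 18% of all genes in the interaction, and the KO libraries of equal number did not all vary together.

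How firmly Il2rb was called depended on the contrast. Against WT gel the call held in 20 of 21 alternatives and was lost with totals left unscaled, where the value was -0.33 (adjusted p = 0.0507). Within KO it held in 12 of 22, with a log2 fold change between -0.35 and -0.23 and an adjusted p of up to 0.147. The call was lost without any 1 of KO media libraries 1 and 3, KO gel libraries 1, 2 and 3, WT media library 2 and WT gel library 2. It was also lost with totals left unscaled (edgeR adjusted p = 0.103) and with only genes of mean log2 CPM of at least 3 (0.0972). The same held without the 2 libraries rich in ribosomal RNA (0.147). The interaction was called in 5 of 21, with values from -0.53 to -0.30: that replicate block, DESeq2, all genes with a count, without WT media library 1 and without WT gel library 3. In the fit of all genes with a count its SE was 0.12 for Il2rb and Stat5b alike, against 0.14 and 0.09 over the genes tested. The p-value of that fit therefore does not reflect the spread of the Il2rb libraries. Beside these values, 2 of the 8 CD8 T cell markers were also called lower in KO gel than in KO media, where 9.74% of all genes were. These were Cd3g (-0.21, SE 0.07, edgeR adjusted p = 0.0417) and Thy1 (-0.24, SE 0.07, edgeR adjusted p = 0.0337), held in 13 and 14 of 22 alternatives. The other markers were not called, with Cd8a at 0.01, Cd8b1 at -0.006, Cd247 at 0.01, Cd3e at -0.02, Cd3d at -0.15 and Cd5 at -0.14. Against WT gel only Thy1 was called lower (-0.23, SE 0.07, edgeR adjusted p = 0.0476), where 7.71% of all genes were, and it held in 10 of 21. The part of these 8 markers in the values of Il2rb and Socs2 was not tested.

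Il2ra (chr2:11642807-11693193, plus strand), the alpha chain that gives the receptor its high affinity, differed little between groups. In media it was at 282 ± 13.3 CPM for WT and 310 ± 25.4 for KO, and in gel at 311 ± 23.6 for WT and 296 ± 25.1 for KO (SD, n = 3), and each pair of groups compared overlapped. The gel response was 0.14 in WT and -0.07 in KO on the log2 scale. Il2rg (chrX:101264378-101268255, minus strand), the gamma chain also used by the IL-4, IL-7, IL-9, IL-15 and IL-21 receptors, was at 124 ± 17.1 CPM (WT) and 111 ± 11.8 (KO) in media, then 120.1 ± 11.6 (WT) and 116 ± 2.34 (KO) in gel. Its groups overlapped in each comparison. So within the receptor, Il2rb passed the test and the other chains did not; whether the chains differ from each other in their change was not tested.

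Stat5a and Stat5b encode the paired transcription factors activated by the receptor, and they lie side by side on chromosome 11 with 8626 bases between them (chr11:100859351-100885169 on the plus strand and chr11:100780731-100850724 on the minus strand). Stat5a was at 76.2 ± 4.02 CPM (WT) and 69.9 ± 2.54 (KO) in media, then 70.4 ± 3.65 (WT) and 68.4 ± 1.66 (KO) in gel. Stat5b was at 180.0 ± 10.3 CPM (WT) and 165 ± 8.82 (KO) in media, then 185 ± 6.36 (WT) and 171 ± 3.15 (KO) in gel. Across the 5 contrasts the log2 differences lay between -0.12 and 0.08 for Stat5a and between -0.13 and 0.05 for Stat5b, and 0 were called. The 3 KO gel libraries were below the 3 WT gel libraries in Stat5b with no overlap, as were 19.9% of all genes in that direction. The log2 difference was -0.11 (SE 0.06, edgeR adjusted p = 0.253). The end of Stat5a overlaps Stat3 on the opposite strand, and since the strand setting of the counting is not given, reads in that stretch may have been shared.

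Cish and Socs3 are shown with the sequence around their RefSeq start (build GRCm38.p6, 250 bases before to 50 after it), because they were the inhibitors with a STAT5-type palindrome there. Of the 10 genes, 8 had such a window, 11 windows in all; Il2rb and Socs2 had none. The motif searched was TTCNNNGAA, which reads the same on both strands, and matches are in capitals. The Cish window is chr9:107296409-107296708 on the plus strand and the Socs3 window is chr11:117969317-117969616, printed on the minus strand, on which the gene lies.
Cish: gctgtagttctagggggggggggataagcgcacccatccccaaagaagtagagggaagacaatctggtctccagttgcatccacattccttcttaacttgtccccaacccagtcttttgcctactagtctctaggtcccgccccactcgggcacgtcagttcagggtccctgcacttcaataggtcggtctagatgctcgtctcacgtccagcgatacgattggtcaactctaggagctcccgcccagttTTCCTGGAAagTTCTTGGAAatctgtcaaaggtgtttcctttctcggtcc
Socs3: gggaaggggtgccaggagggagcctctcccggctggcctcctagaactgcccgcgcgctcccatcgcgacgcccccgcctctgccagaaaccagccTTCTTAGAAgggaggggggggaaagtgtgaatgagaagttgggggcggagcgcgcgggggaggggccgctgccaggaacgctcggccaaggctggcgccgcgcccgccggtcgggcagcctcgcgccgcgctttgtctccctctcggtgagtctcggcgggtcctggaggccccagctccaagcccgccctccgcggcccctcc
The Cish window held 2 matches, TTCCTGGAA beginning at the annotated start and TTCTTGGAA beginning 11 bases after that position, while the Socs3 window held 1, TTCTTAGAA, beginning 154 bases before the start. Among 32841 windows of the same length, 8.3% held at least 1 match and 0.457% held at least 2. The other members' windows held no match to these letters. A match describes the letters in the window and is no evidence of binding. The GENCODE model of Cish begins upstream of this RefSeq start.

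Cish (chr9:107296026-107302784, plus strand) encodes CIS, an SH2-domain inhibitor that occupies STAT5 docking sites on cytokine receptors. In media its level was 36.6, 55.5 and 67.7 CPM in WT libraries 1, 2 and 3, and 60.8, 38.9 and 52.9 CPM in KO libraries. In gel it was 18.6, 31.1 and 24.7 CPM in WT and 21.9, 16.2 and 20.6 CPM in KO. All 6 gel libraries were below all 6 media libraries, and within each culture the genotypes overlapped. Of all genes, 23.9% lay lower in gel without overlap in KO and 4.53% in WT. The share with all 6 below all 6 was not counted. The media groups were spread widely, at 53.3 ± 15.7 CPM in WT and 50.9 ± 11.1 in KO, against 24.8 ± 6.23 and 19.6 ± 2.98 in gel. Behind these levels stand 649 to 3866 counts per library.

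In KO the gel response of Cish was -1.38 on the log2 scale (SE 0.26, 95% interval -1.95 to -0.81, edgeR adjusted p = 0.00491), and it was called in 22 of 22 alternatives, with values from -1.55 to -1.23. In WT it was -1.11 (SE 0.26, 95% interval -1.68 to -0.54), with an unadjusted p of 0.00143 and an edgeR adjusted p of 0.478. With the replicate block that pairs media and gel by number within each genotype, the WT value was -1.09 (SE 0.11, edgeR adjusted p = 0.00370) and was called. That fit called 0.9% of all genes in this contrast. DESeq2 called it too (adjusted p = 0.0296), while a block on the number alone did not (edgeR adjusted p = 0.513). The edgeR fit of all genes with a count also called it (adjusted p = 5.86e-31), as it did 0.495% of all genes. In that fit the SE was 0.09 for Cish, Socs1 and Socs3 alike, against 0.26, 0.17 and 0.13 over the 19010 genes tested. That p-value therefore does not reflect the spread of the Cish libraries. In WT each of the 3 gel libraries was below the media library of its number. The difference between the KO and WT responses was -0.27 (SE 0.36, 95% interval -1.07 to 0.53, edgeR adjusted p = 0.715), so the genotypes were not shown to differ, and the interval is wide. Between the genotypes the difference was -0.06 (SE 0.25) in media and -0.34 (SE 0.26) in gel, neither called. Antisense to Cish lies Gm17040, with 0 to 9 counts per library.

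Socs3 (chr11:117966079-117970047, minus strand) encodes an inhibitor that blocks JAK kinases, chiefly at receptors of the IL-6 family. For WT it gave 31.2, 30.9 and 41.1 CPM across the media libraries and 24.1, 24.5 and 28.2 CPM across the gel libraries. For KO it gave 30.7, 22.4 and 25.9 CPM across the media libraries and 26.4, 22.5 and 26.5 CPM across the gel libraries. WT media stood above the other 3 groups with no overlap, and those 3 groups overlapped one another. Of all genes, 4.53% lay lower in WT gel than in WT media without overlap. WT gel was at 74.5% of WT media, a log2 fold change of -0.42 (SE 0.13, unadjusted p = 0.00518, edgeR adjusted p = 0.657). With the replicate block that pairs media and gel by number within each genotype it was -0.42 (SE 0.06, edgeR adjusted p = 0.00363) and was called. KO media was at 76.7% of WT media, -0.38 (SE 0.13, edgeR adjusted p = 0.507), with no overlap, as were 5.83% of all genes in that direction. These 2 comparisons share the WT media libraries. In KO the gel response was -0.07 (SE 0.13), and the difference between the responses was 0.35 (SE 0.18, 95% interval -0.04 to 0.74, edgeR adjusted p = 0.299), which was not called; with the replicate block within each genotype it was 0.36 (SE 0.09, edgeR adjusted p = 0.0111) and was called.

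Socs1 (chr16:10782240-10785536, minus strand) encodes a direct inhibitor of JAK kinases that limits IL-2 and interferon signalling. For WT it gave 35.0, 36.1 and 56.1 CPM across the media libraries and 28.4, 33.4 and 34.5 CPM across the gel libraries, without overlap, as did 4.53% of all genes in that direction. For KO it gave 41.4, 31.8 and 34.5 CPM across the media libraries and 37.2, 29.1 and 35.9 CPM across the gel libraries, which overlapped. WT media library 3 stood highest by a wide gap. The WT gel response was -0.40 (SE 0.17, unadjusted p = 0.0341, edgeR adjusted p = 0.895) and was not called with the replicate block either (adjusted p = 0.123). Without WT media library 3 it was -0.15 (SE 0.12, edgeR adjusted p = 0.803). The KO response was -0.08 (SE 0.17).

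Socs2 (chr10:95385362-95417180, minus strand) encodes an inhibitor best known at the growth hormone receptor. It was the lowest of the 10 per length. For WT its level was 18.3, 19.1 and 21.8 CPM in the media libraries and 18.4, 21.2 and 18.1 CPM in the gel libraries. For KO it was 19.5, 16.6 and 17.7 CPM in the media libraries and 15.4, 13.2 and 14.6 CPM in the gel libraries. The 3 KO gel libraries were the lowest of the 12, and the other groups overlapped. Of all genes, 23.9% lay below KO media and 19.9% below WT gel without overlap. KO gel was at 80.4% of KO media, a log2 fold change of -0.32 (SE 0.10, edgeR adjusted p = 0.0344), and at 75.1% of WT gel, -0.41 (SE 0.10, edgeR adjusted p = 0.0124). The WT gel response was -0.04 (SE 0.10), and the difference between the responses was -0.28 (SE 0.14, 95% interval -0.57 to 0.02, edgeR adjusted p = 0.283), not called. The call against KO media held in 15 of 22 alternatives and was lost without any 1 of KO media libraries 1 and 3 and KO gel libraries 2 and 3, with an adjusted p of up to 0.128. It was also lost with totals left unscaled (edgeR adjusted p = 0.0771) and with only genes of mean log2 CPM of at least 3 (0.0967). The same held without the 2 libraries rich in ribosomal RNA (0.0736). The call against WT gel held in 17 of 21 and was lost without WT gel library 2 or without KO gel library 2 (adjusted p = 0.0569 and 0.0607). It was also lost with totals left unscaled and without the 2 libraries rich in ribosomal RNA (edgeR adjusted p = 0.0676 and 0.0833).

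Pim1 (chr17:29490753-29496112, plus strand) encodes a serine/threonine kinase that supports survival and growth downstream of STAT5. It was at 207 ± 11.1 CPM (WT) and 188 ± 14.6 (KO) in media, then 195 ± 14.7 (WT) and 190.1 ± 7.96 (KO) in gel, and each pair of groups compared overlapped. Its gel response was -0.08 in WT and 0.02 in KO on the log2 scale. Of the 5 genes named above as STAT5 targets, then, Cish and Socs2 were called lower in KO gel than in KO media, and Socs1, Socs3 and Pim1 were not called.

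**Figure D3:**
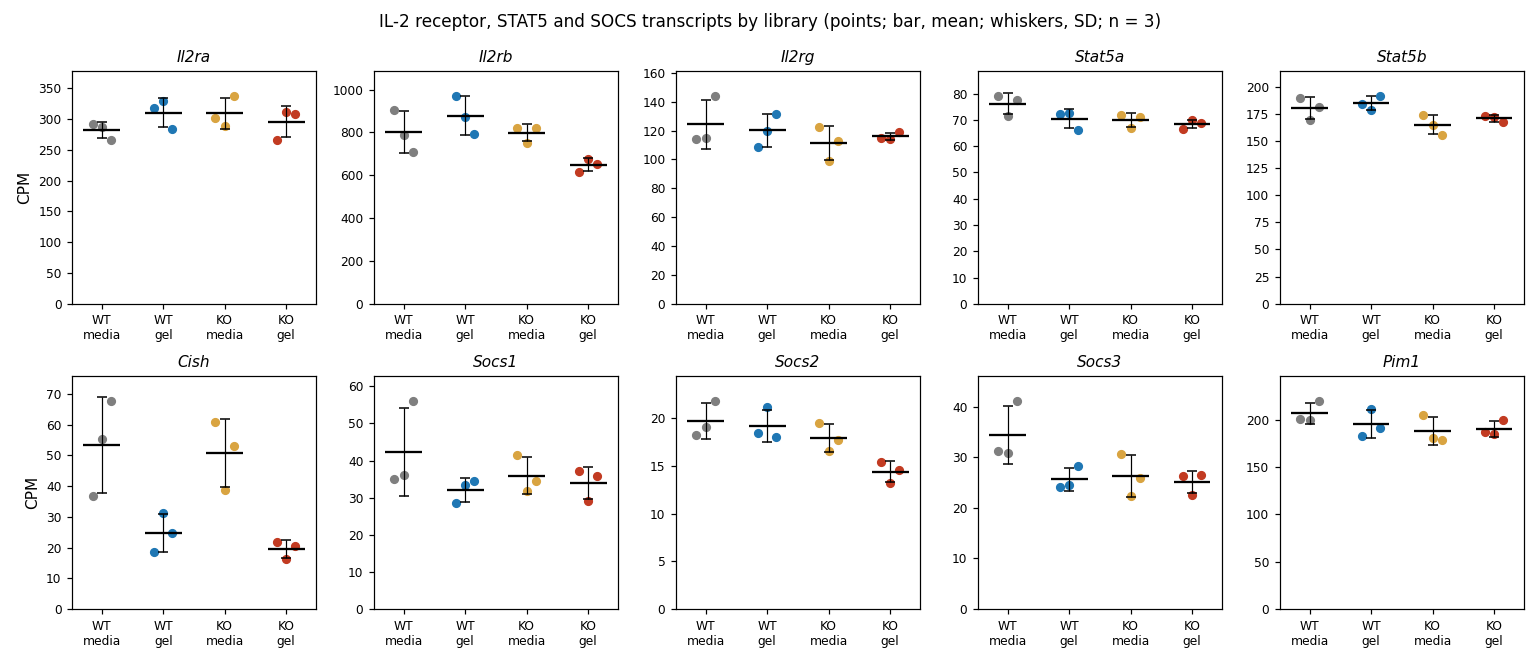
Level of each of the 10 genes (vertical axis, CPM, from 0) in the 12 libraries, grouped by genotype and culture; points are libraries, bars are group means and whiskers are SD (n = 3). In Cish the 6 gel points lie below the 6 media points, in Il2rb and Socs2 the 3 KO gel points lie lowest, and in Socs3 the 3 WT media points lie highest. Of all genes, 23.9% lay lower in gel without overlap in KO and 4.53% in WT.

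The inhibitors varied together from library to library, though not they alone. After each group's mean was taken out, the Pearson correlation of log2 CPM over the 12 libraries was 0.93 between Socs1 and Socs3, 0.87 between Cish and Socs2, 0.81 between Cish and Socs1 and 0.70 between Cish and Socs3. The kinase gene Pim1 was at 0.80 with Socs2, 0.73 with Cish, 0.72 with Socs1 and 0.62 with Socs3. Il2rg also varied with Socs3 (0.92) and Socs1 (0.88), while Il2rb was at -0.57 with Cish and Stat5a at -0.04 with Cish. These are descriptions over libraries that share depth, handling and, within a group, 1 condition.

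Over all 12 libraries, the genes most like Cish among 8773 candidates were Tnf (Pearson r of log2 CPM 0.95), which encodes the inflammatory cytokine TNF, then Trav16n, a T cell receptor alpha segment (0.93), and Abcg3, an ABC transporter gene (0.92). Tnf averaged 54.9 CPM (WT) and 58.9 CPM (KO) in media, then 38.0 (WT) and 30.4 (KO) in gel. Its gel response was -0.95 in KO (SE 0.12, edgeR adjusted p = 1.45e-04) and -0.53 in WT (SE 0.12, edgeR adjusted p = 0.315; 0.00566 with the replicate block). The genes most like Il2rb were Mpp2 and Qars (both 0.98) and Impa2 (0.97). Those most like Socs2 were Ap1g2 and Dclre1b (both 0.93) and Entpd7 (0.91). Likeness over 4 groups reflects the group means as well as single libraries.

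Around the 10 genes, 81 other genes of the pathway were described. Of the 6 cytokine genes that use the gamma chain, Il4, Il7, Il9 and Il21 had too few counts to be tested. Il2 itself was at 1.57 ± 0.27 CPM (WT) and 1.73 ± 0.20 (KO) in media, then 1.45 ± 0.13 (WT) and 1.31 ± 0.15 (KO) in gel, and was called in none of the 5 contrasts. Il15 was higher in KO gel than in KO media (log2 1.30, SE 0.36, edgeR adjusted p = 0.0204), at very low levels of 0.49 ± 0.10 against 0.20 ± 0.06 CPM. The filter kept it for testing only through its KO gel libraries, so a call in that direction was favoured in advance and is a description only. That call held in 16 of 21 settings and was lost without the 2 libraries rich in ribosomal RNA (edgeR adjusted p = 0.0694).

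Of 9 other receptor genes for gamma-chain and STAT5-activating cytokines, 4 rose and 0 fell in KO gel against KO media, where 11.1% of all genes were called higher, and 4 rose and 1 fell in KO gel against WT gel, where 7.12% were called higher. Csf2rb2, 1 of the 4 each time, was kept for testing only through its KO gel libraries (0.396 to 1.72 CPM). It reached at most 0.231 CPM in KO media, 0.116 in WT media and 0.0554 in WT gel. Its rise was thus favoured in advance and adds no support to these counts. Il15ra, which presents IL-15 to cells carrying Il2rb, ranged from 7.91 to 10.5 CPM in the WT libraries and from 8.05 to 8.92 CPM for KO in media. The KO gel libraries, at 11.3 to 12.7 CPM, were above the other 9, and the log2 rise was 0.50 (SE 0.10, edgeR adjusted p = 0.00333). Csf2ra, the GM-CSF receptor alpha chain, rose by 0.59 (SE 0.12). Csf2rb and Csf2rb2, the beta chains of the GM-CSF, IL-3 and IL-5 receptors, rose to only 1.79 ± 0.98 and 0.98 ± 0.68 CPM in KO gel. Alongside them, the 6 listed erythroid and platelet markers summed to 11.6 to 25.4 CPM in KO gel and 3.18 to 7.65 CPM in the other 9 libraries, and the 7 neutrophil and mast cell markers to 9.74 to 15.6 against 4.27 to 8.61 CPM, with S100a8 and S100a9 at 0 counts in KO gel. The part of such transcripts in the receptor genes' rise was not tested. Il4ra, the IL-4 receptor chain, was lower in KO gel than in WT gel, by a log2 difference of -0.36 (SE 0.06, edgeR adjusted p = 0.00218). Its level was 376 ± 7.34 CPM (KO) and 484 ± 18.1 (WT) in gel. In media it was 382 ± 23.7 CPM (KO) and 451 ± 1.31 (WT), a difference that was not called. Its gel response in KO was -0.02 (SE 0.06).

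Of the 4 JAK genes, which carry the signal, 0 were called in any contrast. Jak3, the kinase bound to the gamma chain, was at -0.15 in KO gel against KO media and -0.21 in KO gel against WT gel. Of 4 other STAT genes reported here, 0 were called in any contrast. In KO gel against KO media, Stat2 (0.23, SE 0.08, edgeR adjusted p = 0.0530) and Stat3 (0.18, SE 0.06, edgeR adjusted p = 0.0562) lay close to the threshold. There Stat4 was at 0.03 and Stat6 at 0.08. Of the 4 other SOCS genes, Socs5 was called higher in KO gel than in KO media (0.55, SE 0.09, edgeR adjusted p = 0.00123), at 17.2 ± 0.95 and 11.8 ± 1.46 CPM, a direction opposite to that of Cish and Socs2.

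Of 16 phosphatase, PIAS and adaptor genes that inhibit JAK-STAT signalling, 2 fell and 0 rose in KO gel against KO media, where 9.74% of all genes were called lower and 11.1% higher: Ptpn6, which encodes the phosphatase SHP-1 (-0.31, SE 0.07, edgeR adjusted p = 0.00973), and Ptpn2, which encodes a phosphatase acting on JAKs and STATs (-0.17, SE 0.06, edgeR adjusted p = 0.0468). Of 10 adaptor and kinase genes of the RAS and PI3K arms, 2 fell and 0 rose in the same contrast, against the same shares of all genes: Grb2 (-0.19) and Akt2 (-0.20), with adjusted p-values of 0.0280 and 0.0330. Against WT gel, Ptpn6 (-0.33), Ptpn1 (-0.21), Grb2 (-0.27), Akt2 (-0.27) and Gab2 (-0.50) were called lower in KO gel, 2 of the 16 and 3 of the 10, where 7.71% of all genes were. In WT gel against WT media and in KO against WT media, 0 genes of these 7 groups were called.

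Of 28 other genes that respond to IL-2 or STAT5, 7 fell and 1 rose in KO gel against KO media, where 9.74% of all genes were called lower and 11.1% higher, and their median was -0.13 against -0.01 over all genes. Osm, which encodes the cytokine oncostatin M, fell most (-0.84, SE 0.09, edgeR adjusted p = 7.00e-05). Id2, a regulator of effector differentiation (-0.56), Bcl2, the survival gene (-0.42), Tbx21, which encodes T-bet (-0.39), the cyclin genes Ccnd3 (-0.33) and Ccnd2 (-0.31), and Il18r1, an IL-18 receptor chain (-0.27), also fell. Ifng, the interferon gamma gene, rose by 0.62 (SE 0.20, edgeR adjusted p = 0.0410), from 1.55 ± 0.12 to 2.38 ± 0.33 CPM. Against WT gel, Ifng was higher (1.29, SE 0.22) and Ccnd3 lower (-0.23, SE 0.07) in KO gel, with edgeR adjusted p-values of 0.00171 and 0.0296. Of the 6 CD4 and regulatory T cell markers, 3 were called higher in KO gel than in KO media (Cd4, Cd40lg and Ikzf2), where 11.1% of all genes were, and Zbtb7b was at -0.13, not called; against WT gel, 1 (Cd4) was called higher, where 7.12% of all genes were. These 6 summed to 139 to 150 CPM in KO media and 185 to 212 CPM in KO gel, against 176 to 203 CPM in WT. Most of each sum was Ikzf2, at 101 ± 7.10 CPM in KO media and 158 ± 14.9 in KO gel. In the same 2 groups Zbtb7b averaged 31.4 and 28.7 CPM, Ikzf4 7.17 and 9.06, Cd4 3.04 and 5.29, Cd40lg 0.28 and 0.69, and Foxp3 0.35 and 0.47. The part of these 6 markers in the values of the other genes was not tested.

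In WT gel against WT media, 1 of the 28 was called: Osm fell by 0.82 (SE 0.09, edgeR adjusted p = 0.00143). Its level was 24.3 to 26.5 CPM in WT media and 13.3 to 15.1 CPM in WT gel, and 19.5 to 24.0 and 11.3 to 12.7 CPM in KO. Like Cish, it was lower in all 6 gel libraries than in all 6 media libraries, where 23.9% of all genes lay lower in gel without overlap in KO and 4.53% in WT. The gel response of Osm did not differ between the genotypes beyond error, by -0.03 (SE 0.13, edgeR adjusted p = 0.935). Bcl2 was at -0.39 in WT gel against WT media (SE 0.10, edgeR adjusted p = 0.468). It was called with the replicate block that pairs media and gel within each genotype (-0.38, SE 0.05, edgeR adjusted p = 0.00196). The Bcl2 interaction was -0.04 (SE 0.14).

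**Figure D4:**
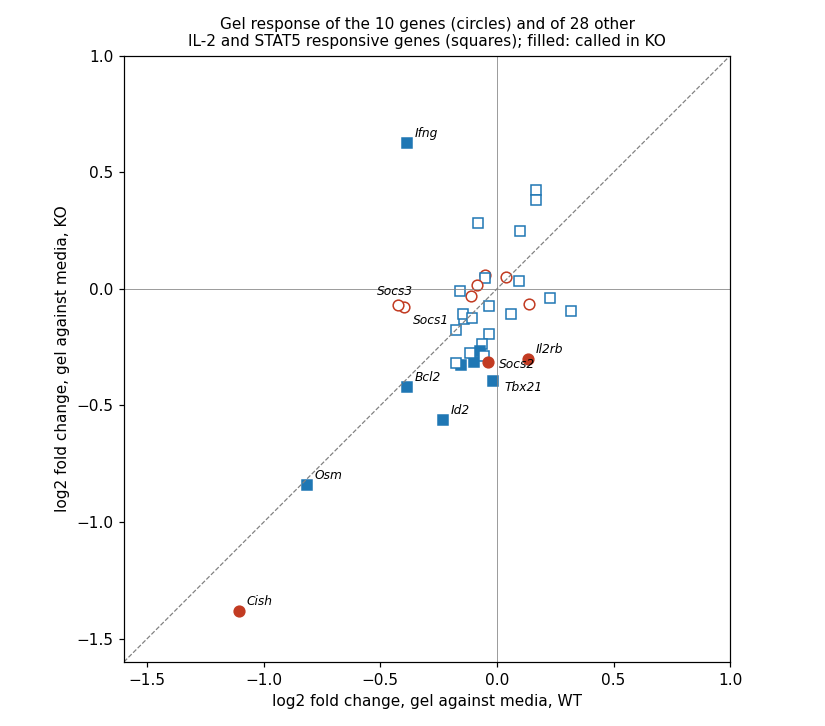
Log2 fold change of gel against media in WT (horizontal axis) and in KO (vertical axis) for the 10 genes (circles) and 28 other IL-2 and STAT5 responsive genes (squares); filled symbols were called in KO and the dashed line marks equal responses. Cish, Osm and Bcl2 lie near the dashed line at the lower left, while Il2rb lies at 0.13 in WT and -0.30 in KO.

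**Figure D5:**
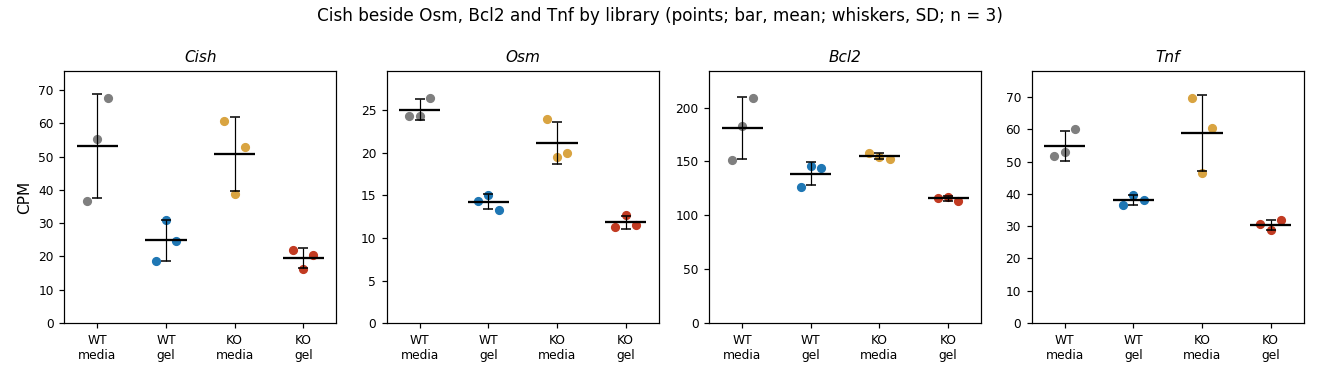
Level by library (vertical axes, CPM, from 0) of Cish beside Osm, Bcl2 and Tnf, with points for libraries, bars for means and whiskers for SD (n = 3 per group). In Cish, Osm and Bcl2 the gel libraries of each genotype lie below its media libraries, and Tnf shows the same order, with means of 38.0 against 54.9 CPM in WT and 30.4 against 58.9 CPM in KO. Such an order without overlap was found in 4.53% of all genes in WT and 23.9% in KO.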

How the data were processed

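Total RNA of 12 libraries (150 ng each, ribosomal RNA depleted, per the labels' protocols) was measured as counts per gene, which the authors deposited as 1 table of raw counts for 55291 symbols, with no normalization. Per the submitters' processing notes the tools included HISAT2 and featureCounts with GRCm38 (mm10). Not given in the sources used here are the versions, annotation, strand setting and treatment of multi-mapping reads; each could change a count where genes overlap or share sequence. The labels give 3 mice per group.

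Counts were analysed with R 4.3.3 and edgeR 4.0.16: filterByExpr with groups (19010 genes kept), TMM scaling, robust quasi-likelihood fit of the 4 groups at once, 5 contrasts, Benjamini-Hochberg adjustment. SE was taken from F (absolute log2 fold change over its square root), and correlations used log2 CPM with a prior count of 2. The script was tested on simulated data. Alternatives were DESeq2 1.42.0, limma 3.58.1 (voom), unscaled totals, other filters, 2 groups alone, replicate blocks and libraries left out.

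The labels do not say whether equal numbers mark the same mouse. Deviations from group means of same-numbered WT media and gel libraries correlated at 0.784, 0.236 and 0.793, and those of WT and KO media at 0.210, 0.161 and 0.379, each over 0.1; KO media and gel (-0.05, 0.17 and 0.18) and WT and KO gel (-0.42, 0.14 and 0.14) did not all reach it. Blocked values stand beside WT gel and interaction results where a call changed. That fit paired the libraries of both genotypes and shared its estimate of the spread between them. The pairing in KO is therefore assumed for the WT values as well as for the interaction.

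Members and lists were chosen with earlier results of these data known. Named genes are the 10 members, up to 4 listed genes per list and contrast by p among those called, other listed genes for context, and the 3 most correlated genes of each member called in a contrast. Gene positions are from GENCODE M21, promoter windows from RefSeq. 1 listed gene is not reported here.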

Additional observations from a re-analysis of the deposited data

Results flagged for a closer look

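Listed genes whose gel response differed between the genotypes by the interaction test (edgeR's quasi-likelihood test, log2 scale, KO response minus WT response) included 4 reported here, none of them among the 10 followed here. They were 2 of the 9 other receptor genes, 1 of the 6 CD4 and regulatory T cell markers and 1 of the 4 erythroid and platelet markers tested. Of all genes tested, 3.35% were called in the interaction. Il15ra differed by 0.64 (SE 0.14, edgeR adjusted p = 0.0265), at 0.50 in KO and -0.14 in WT. Csf2ra differed by 0.76 (SE 0.17, edgeR adjusted p = 0.0316), at 0.59 in KO and -0.17 in WT. Ikzf2, a marker of regulatory T cells among other cells, differed by 0.48 (SE 0.12, edgeR adjusted p = 0.0369), at 0.64 in KO and 0.16 in WT; it was lower in KO than in WT media (-0.45, SE 0.08, edgeR adjusted p = 0.0408), and the difference in gel was 0.03 (SE 0.08, edgeR adjusted p = 0.836). Itga2b, a platelet marker, differed by 1.30 (SE 0.24, edgeR adjusted p = 0.0140), at 1.55 in KO and 0.25 in WT. Under other settings the direction was the same for these 4, and the call held in 13 of 21 settings for Il15ra, 9 of 20 for Csf2ra, 11 of 21 for Ikzf2 and 19 of 20 for Itga2b. All 4 lost the call without the 2 libraries rich in ribosomal RNA, where 0.154% of all genes were called. There the edgeR adjusted p was 0.118 for Il15ra, 0.120 for Csf2ra, 0.179 for Ikzf2 and 0.0692 for Itga2b.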

How the results depend on the processing

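The number of the 10 genes called in KO gel against KO media was 3 and fell to 1 (Cish) with total counts left unscaled, with only genes of mean log2 CPM of at least 3, and without the 2 libraries rich in ribosomal RNA; leaving out 1 library gave 1 to 3. In WT gel against WT media it was 0, and became 1 with DESeq2, 3 with all genes that had a count and 2 with the replicate block that pairs media and gel by number within a genotype. In KO against WT media it was 0, and became 1 (Socs3) with all genes that had a count. In KO against WT gel it was 2, and became 0 with total counts and 1 (Il2rb) without the ribosomal-RNA-rich libraries; leaving out 1 library gave 1 to 2. In the interaction it was 0, and became 1 (Il2rb) with DESeq2 and with all genes that had a count, and 2 (Il2rb and Socs3) with that replicate block; leaving out 1 library gave 0 to 1. In the fit of all genes that had a count, the SE did not follow each gene's own spread, as described for Cish, so its calls share that limit. The cause of these changes was not tested. A block on the number alone changed no call of the 10 genes.

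Values near 0, none of them called, changed sign. With total counts, values were Stat5a 0.0052 in KO gel against media, and Stat5b -0.049 in WT gel against media, and Il2ra 0.039, Il2rg 0.055, Stat5a 0.065, Socs3 0.073 and Pim1 0.073 in KO against WT gel. With only genes of mean log2 CPM of at least 3, values were Il2ra 0.0054, Stat5a 0.041 and Socs3 0.0031 in KO gel against media, and Il2rb 0.0045 in KO against WT media, and Il2ra 0.0067, Il2rg 0.029, Stat5a 0.037, Socs3 0.049 and Pim1 0.040 in KO against WT gel. With all genes that had a count, values were Pim1 -0.029 in KO gel against media, and Il2rb 0.0022 in KO against WT media, and Stat5b -0.023 in the interaction. Without the ribosomal-RNA-rich libraries, values were Pim1 -0.021 in KO gel against media, and Pim1 0.024 in KO against WT gel, and Stat5b -0.056 in the interaction. Without both WT libraries numbered 3, a setting chosen after seeing the data, values were Pim1 -0.00058 in KO gel against media, and Socs2 0.085 in WT gel against media, and Cish 0.16 and Socs1 0.032 in KO against WT media, and Il2rg 0.018 and Socs3 0.044 in KO against WT gel. With limma-voom, values were Il2rb 0.0016 in KO against WT media. With 2 groups alone, values were Il2rb 0.0032 in KO against WT media. With the replicate block on the number, values were Il2rb 0.00094 in KO against WT media.

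Leaving out 1 library at a time also moved values across 0. In KO gel against media it gave -0.024 to 0.13 for Il2rg, -0.038 to 0.078 for Pim1, -0.16 to 0.035 for Socs1, -0.18 to 0.052 for Socs3 and -0.0059 to 0.086 for Stat5b. In WT gel against media it gave -0.12 to 0.068 for Il2rg, -0.11 to 0.039 for Socs2 and -0.0028 to 0.080 for Stat5b. In KO against WT media it gave -0.27 to 0.15 for Cish, -0.086 to 0.093 for Il2rb and -0.36 to 0.018 for Socs1. In KO against WT gel it gave -0.12 to 0.018 for Il2rg, -0.085 to 0.023 for Pim1, -0.0017 to 0.18 for Socs1 and -0.077 to 0.043 for Socs3. In the interaction it gave -0.015 to 0.18 for Il2rg and -0.048 to 0.050 for Stat5b.

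Over all genes, calls also moved. In WT gel against media they went from 7 to 47 with DESeq2, 15 with total counts, 195 with all genes, 4 with higher genes alone, 2 with 2 groups alone and 171 with the paired block. In KO gel against media they went from 3962 to 6063 with all genes, 6159 with 2 groups alone, 7804 with the paired block, 2056 with higher genes alone and 2200 without the ribosomal-RNA-rich libraries. Between KO and WT media they went from 36 to 90 with DESeq2, 435 with all genes, 57 with the number block, and 19 both with higher genes alone and without the ribosomal-RNA-rich libraries. Between KO and WT gel they went from 2819 to 1511 with higher genes alone and 1444 without those libraries. In the interaction they went from 636 to 1149 with DESeq2, 1768 with all genes, 962 with the number block, 3431 with the paired block, 248 with higher genes alone and 30 without those libraries. Leaving out 1 library moved these counts by over 1.5 times as follows. For the gel response in WT, 16 were called without WT media library 1. For that in KO, the count was 2558 with KO media library 1 removed, and 2163 or 2500 with KO gel library 1 or 3 removed. Between KO and WT media, 70 were called without WT media library 1 and 23 without KO media library 2. Between KO and WT gel, 1842 were called without WT gel library 2 and 1609, 1776 and 1857 without KO gel libraries 1, 2 and 3. In the interaction, 2011 were called without WT media library 1 and 185 without WT media library 2, and the 8 other libraries that moved it gave 241 to 347, while leaving out KO media library 2 (490) or WT gel library 3 (812) moved it less. Total counts moved the median of all genes to -0.09 in WT gel against media and 0.10 in KO against WT gel.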
